A study of Mus musculus with 10 samples.

Results

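The 10 genes described here encode annexins and S100 proteins, which sense calcium at or near cell membranes. They were chosen by name from the gene symbols: the annexins Anxa1, Anxa2, Anxa3 and Anxa5, and the S100 genes S100a4, S100a6, S100a8, S100a9, S100a10 and S100a11. The choice was made with earlier results of these data known. Shares over all genes therefore stand beside the members' values as a description only. They are 10 of 39056 genes in the count table, and all 10 passed the filter on low counts that left 15811 genes for testing. The study profiled liver or liver tumour RNA of 11-month-old C57BL/6 mice by 3' tag sequencing, in which each read comes from near the end of a transcript. Its 4 groups were tumours of MLK3-KO mice given DEN/PB (KO tumours, 3 libraries), tumours of Wild-type mice given DEN/PB (WT tumours, 3), liver of water-treated MLK3-KO mice (KO liver, 2) and liver of water-treated Wild-type mice (WT liver, 2). MLK3 is a mixed-lineage kinase upstream of JNK.

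DEN (diethylnitrosamine), an alkylating liver carcinogen, was injected once at 5 µg per g body weight into male pups at 2 weeks of age. PB (phenobarbital), a promoter of liver tumours, followed after 1 week in the drinking water at 0.05% until the mice were killed. Every tumour came from a treated mouse and every normal liver from a mouse on water, so tumour formation and treatment cannot be told apart. The labels call the tissue tumour, but the text on RNA extraction mentions livers of treated mice without separating tumours from them, and they do not say how the MLK3 gene was deleted or in which cells. Replicates are called biological in the series design, and all groups share the strain, sex and age.

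Annexins are cytosolic proteins that bind acidic phospholipids when calcium rises, and they take part in membrane repair, vesicle traffic and the resolution of inflammation. S100 proteins are small EF-hand proteins, most of which pair up and attach to a target when they bind calcium. Several work together: annexin A2 is bound by S100A10, annexin A1 by S100A11, and S100A8 joins S100A9 to form calprotectin. In liver, hepatocytes, bile duct cells, endothelial cells, fibroblasts and white blood cells make different members, so the RNA of a whole tissue piece mixes them. Fewer cells of a type and less RNA per cell cannot be told apart in such samples.

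Members on chromosome 3 lie close together (positions from GENCODE release M21, GRCm38, the assembly also called mm10). S100a4 (90603771 to 90606045), S100a6 (90612882 to 90624181), S100a8 (90668978 to 90670035) and S100a9 (90692632 to 90695721) belong to a cluster of 12 S100 genes. S100a11 (93520488 to 93526287) and S100a10 (93555080 to 93564643) are a separate pair, with 28792 bases between them. Anxa5 lies at 36448923 to 36475894 on the same chromosome, Anxa3 on chromosome 5 at 96793339 to 96845966, Anxa2 on chromosome 9 at 69453620 to 69491795 and Anxa1 on chromosome 19 at 20373428 to 20390944. The other annotated genes overlapping a member that the count table listed, Gm42674 over S100a4 and 1500015L24Rik over Anxa1, had 0 counts in the 10 libraries together. The processed pseudogene S100a11-ps had 1 count in all libraries together. Reads left out for matching both places would not show in these counts.

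Promoter sequences were at hand for 8 of the 10 members, all but Anxa3 and S100a10 (RefSeq, GRCm38.p6, from 250 bases before the transcription start to 50 after it). The 4 shown here belong to Anxa2, S100a11 and Anxa5, members whose KO and WT tumours did not overlap, and to S100a8, the one with the largest tumour-to-liver difference in KO mice. Each is the 150 bases just before the start, on the strand of the gene, and capitals mark matches to the motifs searched.
Anxa2, chr9:69453533-69453682, plus strand: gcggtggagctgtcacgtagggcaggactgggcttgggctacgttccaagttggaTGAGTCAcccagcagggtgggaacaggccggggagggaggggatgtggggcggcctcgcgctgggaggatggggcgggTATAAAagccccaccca
S100a11, chr3:93520346-93520495, plus strand: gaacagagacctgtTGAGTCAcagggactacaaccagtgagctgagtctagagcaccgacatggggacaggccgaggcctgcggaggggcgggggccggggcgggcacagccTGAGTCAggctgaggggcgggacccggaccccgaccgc
Anxa5, chr3:36475888-36476037, minus strand: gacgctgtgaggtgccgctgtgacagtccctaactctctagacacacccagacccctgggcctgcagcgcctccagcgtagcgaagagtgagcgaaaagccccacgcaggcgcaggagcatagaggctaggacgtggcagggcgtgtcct
S100a8, chr3:90668921-90669070, plus strand: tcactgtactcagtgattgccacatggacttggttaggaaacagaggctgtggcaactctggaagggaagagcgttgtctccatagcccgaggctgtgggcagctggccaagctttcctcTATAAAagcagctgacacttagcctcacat

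The motifs were AP-1 (TGANTCA), the dimer of Jun and Fos proteins that JNK acts on, C/EBP (TTNNGCAA) and NF-kB, each on both strands, and the TATA box (TATAAA) on the gene's strand. No 2 of the matches shown overlap. Over the 300-base windows, AP-1 letters stood in 2 of the 8 promoters, Anxa2 with 1 match and S100a11 with 2, against 7.93% of 27025 promoters. C/EBP letters stood in those of Anxa1 and S100a9 (2 of 8, against 10.8% of promoters) and NF-kB letters in none of the 8 (0.385% of promoters). TATAAA stood in 5 of 8, against 8.88% of promoters: Anxa1, Anxa2, S100a4, S100a8 and S100a9, the last beginning at the start site itself. These are matches of letters in a short window and say nothing of binding.

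Library totals ran from 12408749 to 18081487 counts. Levels below are CPM, the counts of a gene divided by library size after TMM scaling, with SD over libraries. Since counts of 3' tags do not grow with transcript length, no length correction was made. Map3k11, the gene of MLK3, had 8.71 ± 2.5 CPM in KO tumours and 12 ± 2.4 in WT tumours (n = 3 each), and 5.59 ± 0.3 in KO liver and 11.4 ± 5 in WT liver (n = 2 each). No comparison of it passed the test. Its tags come from the end of the transcript, and without a description of the deleted part they check no label. Hepatocyte markers were abundant in all libraries, their 10 genes summing to 40600 to 48400 CPM in KO tumours and 76100 to 96700 CPM in WT tumours, against 53300 and 49800 CPM in KO liver and 47900 and 45800 CPM in WT liver. Alb made up most of this sum, with 54600 CPM in WT tumours against 23600 CPM in WT liver. Others on the list were called the other way, such as Cyp3a11 (329 CPM in WT tumours against 1750 CPM in WT liver) and Ass1 (195 against 844 CPM), and the list's median log2 fold change was -0.27. One library stood apart from its label: 6 liver tumour markers (Afp, Gpc3, Igf2, H19, Scd2 and Ly6d) summed to 16.4 CPM in KO tumour replicate 2, against 3100 and 602 CPM in the other KO tumours, 1630 to 2130 CPM in WT tumours and 9.78 to 29.2 CPM in the 4 livers. Comparisons of members that use KO tumours are therefore also given without it where the value or call differs most.

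The same library departed from the other tumours in the 10 members. KO tumour replicate 2 was above all 4 livers for 0 of 10 members, where 19% of the 15811 tested genes were above, and it was below them for 2, Anxa2 and S100a11. KO tumour replicate 1 was above all 4 livers for 9 members (23.6% of tested genes) and KO tumour replicate 3 for 7 (22.7%). In WT tumour replicates 1, 2 and 3 the numbers were 9, 9 and 8 (28.7%, 27.7% and 27.2% of tested genes).

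**Figure D1:**
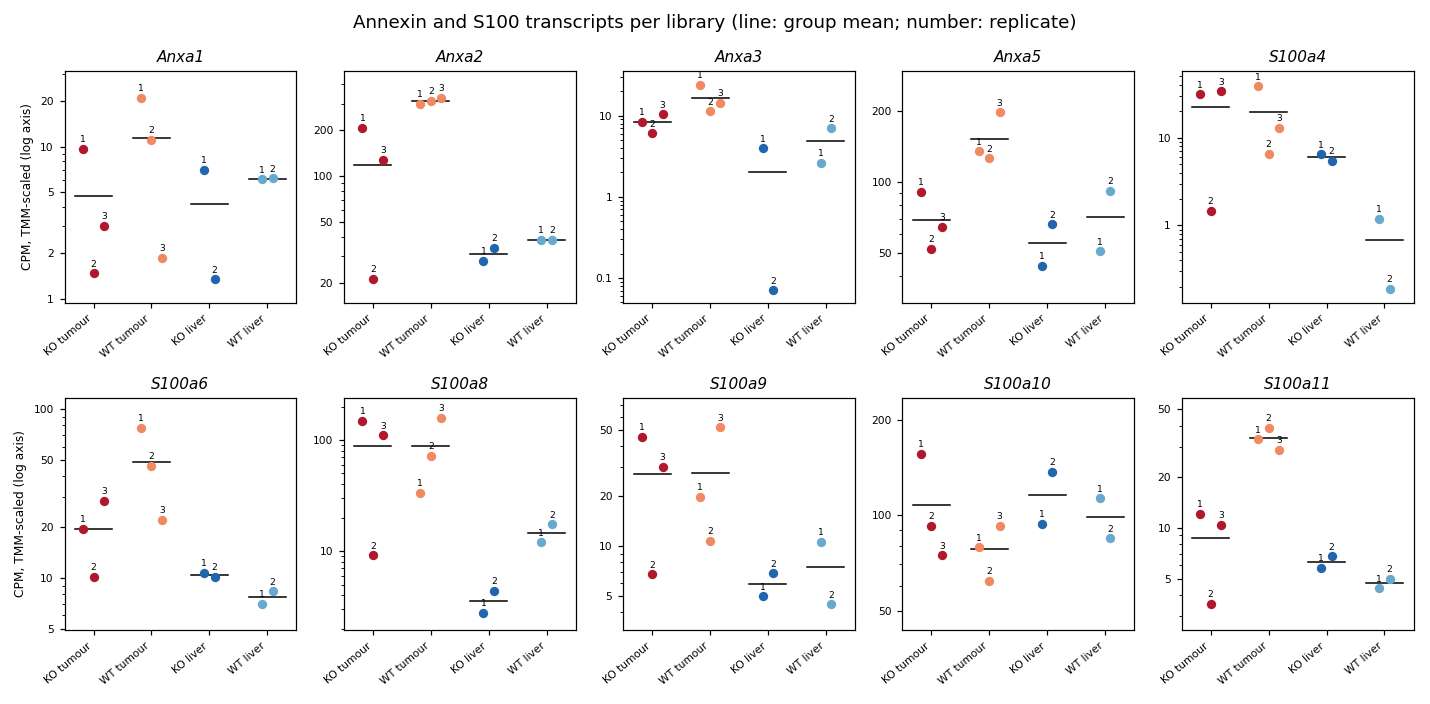
CPM (TMM-scaled, log axis) of each member in every library, by group, with the replicate number above each point and the group mean as a line. WT tumours lie above both livers of their genotype for 8 of the 10 genes, and KO tumour replicate 2 lies within the range of the 4 livers in 8 panels and below it in 2.

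In WT tumours against WT liver, 4 of the 10 members rose and none fell: Anxa2, S100a4, S100a6 and S100a11. Among all tested genes 8.34% were called, 3.64% as higher and 4.7% as lower (edgeR's quasi-likelihood test, Benjamini-Hochberg adjusted p under 0.05). The median log2 fold change of the members was 2.22, against 0.09 over all tested genes. Libraries of the groups did not overlap for 8 members, all higher in the tumours, against 19.6% of tested genes that were separated upwards. DESeq2, which called 14.1% of all genes, called 5 members, with Anxa5 as the fifth.

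In KO tumours against KO liver, 0 of 10 members passed edgeR's test, where 0.0759% of all genes did. An unadjusted p under 0.05 was reached by 3 members, against 9.61% of tested genes, and DESeq2 called S100a8 (2.38% of all genes). The members' median log2 fold change was 1.39, against 0.06 over all tested genes. Libraries were separated for 2 members, Anxa3 and S100a8, both higher in the tumours (14.3% of tested genes). Without KO tumour replicate 2, Anxa2 and S100a8 passed, while the share of all genes called was 1.29%.

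KO tumours were set against WT tumours to compare the genotypes. The KO group includes replicate 2, whose tumour markers were at the level of the livers. Here 2 of 10 members were lower, Anxa5 and S100a11, and none was higher. Among all tested genes 4.52% were called, 1.27% as lower and 3.25% as higher. Without KO tumour replicate 2 only S100a11 was called, with 2.93% of all genes. The median log2 fold change was -1.07, against -0.03 over all tested genes. Libraries were separated for 4 members, Anxa2, Anxa3, Anxa5 and S100a11, all lower in KO tumours (10.9% of tested genes). In KO liver against WT liver 0 of 10 members passed (0.00632% of tested genes), as did 0 of 10 in the interaction, which asks whether the tumour-to-liver difference depends on genotype (1.59% of tested genes). An unadjusted p under 0.05 was reached by 2 members in each of these comparisons (7.28% and 12.7% of tested genes), and DESeq2 called 0 members in the first (0.936% of all genes) and S100a11 in the second (4.16%). KO liver lay above WT liver without overlap for S100a4, S100a6 and S100a11 and below it for Anxa2 and S100a8 (15.5% of tested genes in each direction). These comparisons share samples, so their values are not independent.

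**Figure D2:**
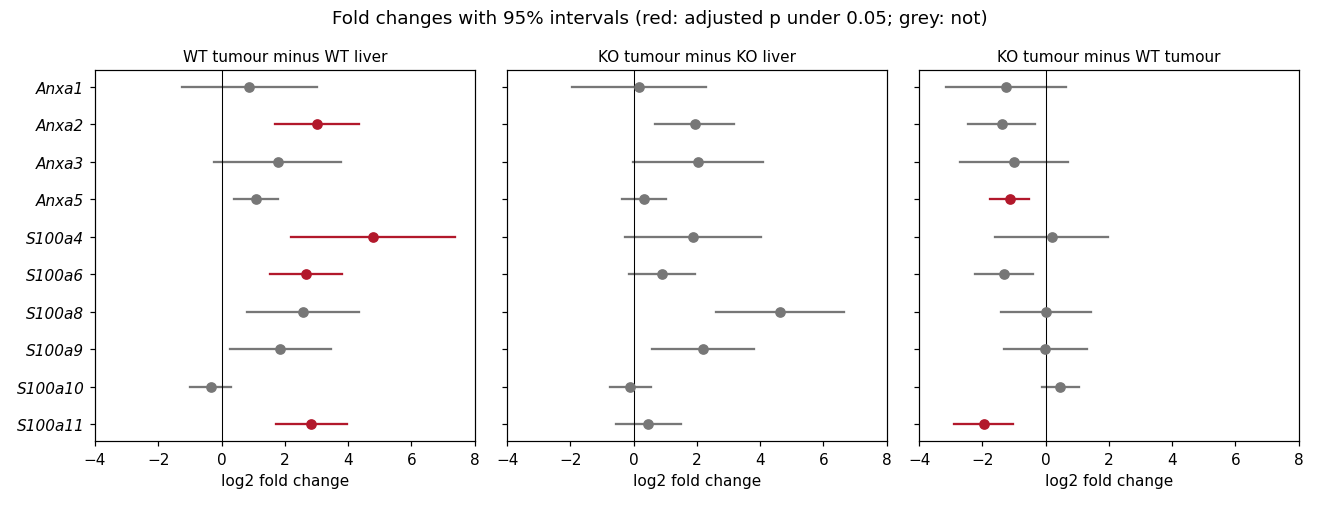
Log2 fold change of each member with its 95% interval in WT tumours against WT liver (left), KO tumours against KO liver (middle) and KO against WT tumours (right), in red where the adjusted p was under 0.05. In the left panel 4 genes are red, in the middle none, and in the right Anxa5 and S100a11, both below 0.

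Anxa2, an annexin that links membranes to actin and carries S100A10 to the cell surface, was the most abundant member in WT tumours. It had 209, 21.3 and 128 CPM in KO tumours and 298, 314 and 328 CPM in WT tumours, against 28.1 and 34.2 CPM in KO liver and 38.6 and 38.6 CPM in WT liver. All WT tumours were above every other library, and KO tumours split into a pair above the livers and replicate 2 below them. Between WT tumours and WT liver the gene differed 8.11-fold (log2 fold change 3.02, SE 0.62, adjusted p = 0.006). The difference of 1.94 between KO tumours and KO liver did not pass (SE 0.59, adjusted p = 0.26). Without KO tumour replicate 2 it was 2.43 and passed (SE 0.26, adjusted p = 0.00044). KO tumours were below WT tumours without overlap, by a log2 fold change of -1.39 that did not pass (SE 0.49, adjusted p = 0.16), or -0.89 without KO tumour replicate 2 (adjusted p = 0.058) and -2.07 without KO tumour replicate 1 (adjusted p = 0.037). The interaction was -1.08 (95% interval -2.74 to 0.57, adjusted p = 0.63), or -0.59 without KO tumour replicate 2 (adjusted p = 0.58).

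S100a10 encodes the partner of annexin A2, an S100 protein that no longer binds calcium and docks plasminogen and its activator at the cell surface. Its level did not follow that of Anxa2. S100a10 had 156, 92.6 and 74.7 CPM in KO tumours and 79.2, 62.2 and 92.7 CPM in WT tumours, against 94.1 and 137 CPM in KO liver and 113 and 84.7 CPM in WT liver. The groups overlapped in each pair next to each other in order of level. No comparison passed, and the log2 fold change was -0.34 in WT tumours against WT liver (95% interval -1 to 0.31, adjusted p = 0.58) and -0.1 in KO tumours against KO liver (-0.76 to 0.55, adjusted p = 0.96).

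The ratio of Anxa2 to S100a10 counts within a library was 1.34, 0.23 and 1.71 in KO tumours and 3.76, 5.05 and 3.54 in WT tumours, against 0.299 and 0.249 in KO liver and 0.342 and 0.456 in WT liver. Group means were 1.09 ± 0.77 in KO tumours and 4.12 ± 0.81 in WT tumours (SD, n = 3 each), and 0.274 ± 0.035 in KO liver and 0.399 ± 0.08 in WT liver (n = 2 each). The ratio in WT tumours was above that of every other library, and KO tumour replicate 2 had the lowest of all 10. How much RNA a count stands for can differ between genes, so the ratio is read between libraries and not as a molar ratio.

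**Figure D3:**
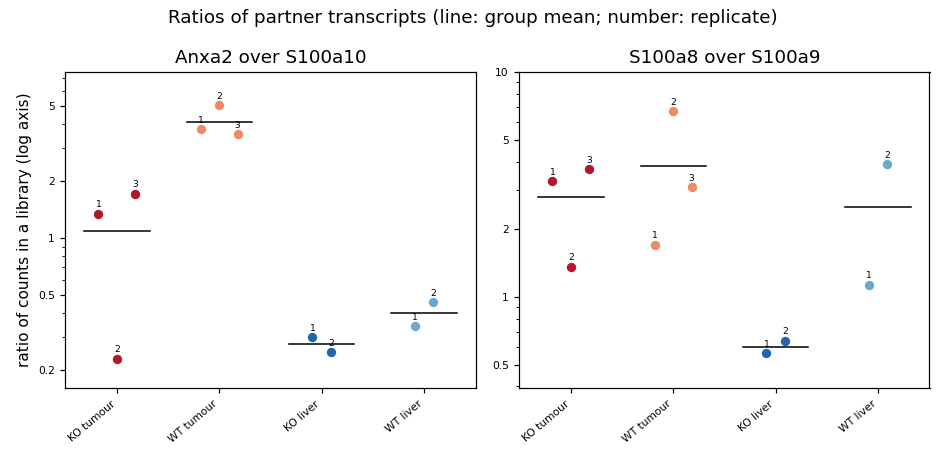
Ratio of counts within each library (log axis) for Anxa2 over S100a10 (left) and S100a8 over S100a9 (right), by group, with replicate numbers and group means as lines. The left ratio is 3.54 to 5.05 in WT tumours and 0.249 to 0.456 in the livers, and the right ratio overlaps between tumours and WT liver.

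S100a11 encodes an S100 protein that binds the tail of annexin A1 and is known from membrane repair. It had 12.1, 3.56 and 10.4 CPM in KO tumours and 33.2, 38.9 and 28.9 CPM in WT tumours, against 5.78 and 6.8 CPM in KO liver and 4.4 and 4.98 CPM in WT liver. WT tumours were above every other library, and KO tumours lay between them and the livers except replicate 2, the lowest of all. Between WT tumours and WT liver S100a11 differed 7.17-fold (log2 fold change 2.84, SE 0.53, adjusted p = 0.0031), and the difference of 0.46 between KO tumours and KO liver did not pass (SE 0.48, adjusted p = 0.81), nor did that of 0.84 without KO tumour replicate 2 (adjusted p = 0.46).

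S100a11 was lower in KO than in WT tumours, by a log2 fold change of -1.96 (SE 0.44, adjusted p = 0.016). Without KO tumour replicate 2 it was -1.58 and still called (adjusted p = 0.046). The call was lost without KO tumour replicate 3 (-2.1, adjusted p = 0.05), WT tumour replicate 1 (-1.95, adjusted p = 0.057) or WT tumour replicate 2 (-1.81, adjusted p = 0.086). Its interaction had the smallest p among the members, with a log2 fold change of -2.38 (SE 0.68), and did not pass (adjusted p = 0.12 in edgeR and 0.043 in DESeq2). Without KO tumour replicate 2 it was -2 (adjusted p = 0.13).

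Anxa1, whose protein calms inflammation through formyl peptide receptors, varied too much within groups to be placed. It had 9.71, 1.47 and 3.03 CPM in KO tumours and 21, 11.1 and 1.86 CPM in WT tumours, against 7.04 and 1.35 CPM in KO liver and 6.09 and 6.18 CPM in WT liver. All groups overlapped, and the 2 WT livers fell inside the range of the WT tumours. The log2 fold change in WT tumours against WT liver was 0.88, with an interval of -1.26 to 3.02 (adjusted p = 0.68).

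Anxa5 encodes the annexin known as a probe for phosphatidylserine on dying cells. It had 90.9, 52.2 and 64.5 CPM in KO tumours and 135, 126 and 197 CPM in WT tumours, against 44.1 and 66.2 CPM in KO liver and 50.9 and 91.6 CPM in WT liver. Every WT tumour was above every other library, while KO tumours and both kinds of liver overlapped. KO tumours were lower than WT tumours by a log2 fold change of -1.14 (SE 0.29, adjusted p = 0.033). In WT tumours against WT liver it was 2.14-fold higher, just short of the test (log2 fold change 1.1, SE 0.33, adjusted p = 0.053), and in DESeq2 it passed (adjusted p = 0.017). It also passed without KO tumour replicate 1 or 2, either KO liver or WT liver replicate 2 (adjusted p = 0.029 to 0.048). KO tumours and KO liver differed by 0.33 (95% interval -0.36 to 1.01, adjusted p = 0.79).

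The call on Anxa5 between KO and WT tumours rested on every tumour library but KO tumour replicate 1. It was lost without KO tumour replicate 2 (-0.97, adjusted p = 0.15), KO tumour replicate 3 (-1.09, adjusted p = 0.14), WT tumour replicate 1 (-1.2, adjusted p = 0.063), WT tumour replicate 2 (-1.24, adjusted p = 0.051) and WT tumour replicate 3 (-0.88, adjusted p = 0.18). The direction was the same in each of these fits.

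Anxa3, an annexin first described in neutrophils, was low throughout. It had 8.48, 6.07 and 10.4 CPM in KO tumours and 23.9, 11.4 and 14.5 CPM in WT tumours, against 3.95 and 0.0708 CPM in KO liver and 2.64 and 7 CPM in WT liver. The low value in KO liver replicate 2 was 1 count. Tumours of each genotype lay above the livers of the same genotype, and KO below WT tumours, all without overlap. None of these differences passed, with log2 fold changes of 1.78 in WT tumours against WT liver (SE 0.94, adjusted p = 0.3), 2.03 in KO tumours against KO liver (SE 0.97, adjusted p = 0.53) and -1 in KO against WT tumours (SE 0.8, adjusted p = 0.67).

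S100a6 (calcyclin), made by many growing and stromal cells, had 19.5, 10.2 and 28.7 CPM in KO tumours and 77.5, 46 and 22.1 CPM in WT tumours, against 10.7 and 10.2 CPM in KO liver and 7.04 and 8.33 CPM in WT liver. WT tumours were all above the livers, KO tumour replicate 2 was level with the KO livers, and the tumour groups overlapped. Between WT tumours and WT liver S100a6 differed 6.32-fold (log2 fold change 2.66, SE 0.54, adjusted p = 0.0054). The differences in KO tumours against KO liver (0.9, SE 0.5, adjusted p = 0.58, or 1.21 and 0.34 without KO tumour replicate 2) and in KO against WT tumours (-1.32, SE 0.43, adjusted p = 0.12, or -1.01 and 0.39 without it) did not pass. Without WT tumour replicate 3 the second difference was -1.63 and passed (adjusted p = 0.042).

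S100a4, a marker of fibroblasts and macrophages linked to cell movement and metastasis, had the lowest level of any member in WT liver. It had 31.1, 1.47 and 33.6 CPM in KO tumours and 38.4, 6.55 and 13 CPM in WT tumours, against 6.46 and 5.45 CPM in KO liver and 1.19 and 0.189 CPM in WT liver. WT liver rested on 19 and 3 counts. WT tumours were above all livers, and KO tumours were far above them except replicate 2, which was below both KO livers. Set against WT liver, WT tumours had 27.7 times the level (log2 fold change 4.79, SE 1.22, adjusted p = 0.022), a call lost without WT tumour replicate 1 (3.79, adjusted p = 0.078) or WT liver replicate 2 (4.01, adjusted p = 0.12).

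KO and WT tumours overlapped for S100a4 (log2 fold change 0.19, 95% interval -1.59 to 1.97, adjusted p = 0.97), with 0.74 when KO tumour replicate 2 was left out (adjusted p = 0.8). KO tumours differed from KO liver by 1.88 (SE 1.01, adjusted p = 0.56), or by 2.44 without KO tumour replicate 2 (adjusted p = 0.2). In liver, S100a4 was higher in KO than in WT libraries without overlap, by a log2 fold change of 3.09 that did not pass (SE 1.19, adjusted p = 0.63).

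S100a8 and S100a9 encode calprotectin, an antimicrobial metal-binding complex stored in large amounts by neutrophils and monocytes. S100a8 had 148, 9.22 and 110 CPM in KO tumours and 33.7, 72.5 and 159 CPM in WT tumours, against 2.8 and 4.39 CPM in KO liver and 12 and 17.4 CPM in WT liver. Tumours of each genotype were above the livers of the same genotype, and KO tumour replicate 2 was the lowest tumour and lay below both WT livers. The log2 fold change was 2.58 in WT tumours against WT liver (SE 0.83, adjusted p = 0.072) and 4.63 in KO tumours against KO liver (SE 0.95, adjusted p = 0.088). Neither passed in the main edgeR fit.

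The difference in KO mice passed in DESeq2 (4.65, adjusted p = 0.0024), without KO tumour replicate 2 (5.17, adjusted p = 0.00082), and without WT liver replicate 1 (4.64, adjusted p = 0.036) or WT liver replicate 2 (4.64, adjusted p = 0.035). The difference in WT mice passed without KO tumour replicate 2 as well (2.58, adjusted p = 0.0055), and with only the groups compared in the fit (2.58, adjusted p = 0.027). Without the low-count filter both differences passed in edgeR (adjusted p = 4.4e-13 in WT and 4.5e-32 in KO mice). The fold changes were nearly unchanged there (2.58 and 4.64), and the SE was 0.33 and 0.37, against 0.83 and 0.95 in the main fit. These small p-values thus come with a smaller estimate of spread, although KO tumours ran from 9.22 to 148 CPM. Leaving out libraries of another group leaves the fold change as it was and alters the estimate of spread. KO and WT tumours had nearly the same mean of S100a8, at 89.1 ± 72 CPM in KO and 88.2 ± 64 CPM in WT tumours (log2 fold change 0.01, 95% interval -1.41 to 1.44, adjusted p = 1), and without KO tumour replicate 2 the difference was 0.55 (adjusted p = 0.76). In liver KO was below WT without overlap (-2.04, SE 0.89, adjusted p = 0.68).

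S100a9 had 45.2, 6.77 and 29.9 CPM in KO tumours and 19.7, 10.8 and 51.7 CPM in WT tumours, against 4.98 and 6.87 CPM in KO liver and 10.6 and 4.48 CPM in WT liver. WT tumours were above WT liver, by a narrow margin for replicate 2, and KO tumour replicate 2 fell between the KO livers. The log2 fold change was 1.86 in WT tumours against WT liver (SE 0.74, adjusted p = 0.15) and 2.2 in KO tumours against KO liver (SE 0.76, adjusted p = 0.34), the second being 2.66 without KO tumour replicate 2 (adjusted p = 0.078). KO and WT tumours differed by -0.01 (95% interval -1.33 to 1.31, adjusted p = 1), or by 0.45 without KO tumour replicate 2 (adjusted p = 0.91).

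Although the proteins work as a pair, the ratio of S100a8 to S100a9 counts was not fixed. It was 3.27, 1.36 and 3.7 in KO tumours and 1.71, 6.68 and 3.07 in WT tumours, against 0.563 and 0.639 in KO liver and 1.13 and 3.89 in WT liver. KO livers had the lowest ratios of the 10 libraries, and the other groups overlapped.

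Neutrophil markers were set beside the calprotectin genes. Of 14 listed, 8 passed the filter on low counts, and 1, Lcn2, rose in WT tumours against WT liver (8.34% of all genes called). Lcn2, the iron-trapping protein lipocalin 2, is also made by stressed hepatocytes. It had 254, 3.21 and 97.1 CPM in KO tumours and 507, 609 and 591 CPM in WT tumours, against 5.09 and 24.4 CPM in KO liver and 57.1 and 16.3 CPM in WT liver, with a rise of 3.95 on the log2 scale in WT tumours over WT liver (SE 1.15, adjusted p = 0.047) that did not pass without KO tumour replicate 3, any 1 of the WT tumours or either WT liver (adjusted p = 0.062 to 0.2). The other 13 markers summed to 21.6, 8.17 and 17.7 CPM in KO tumours and 10.2, 13.1 and 24.8 CPM in WT tumours, against 6.75 and 3.4 CPM in KO liver and 4.59 and 8.39 CPM in WT liver. Among tumours of each genotype, the lowest KO tumour (replicate 2) and the highest WT tumour (replicate 3) were the same in this sum and in S100a8. The livers did not match, since KO liver replicate 1 had a higher sum than WT liver replicate 1 and less S100a8. The defining markers Ly6g, Elane and Mpo had at most 3, 1 and 15 counts in any library.

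**Figure D4:**
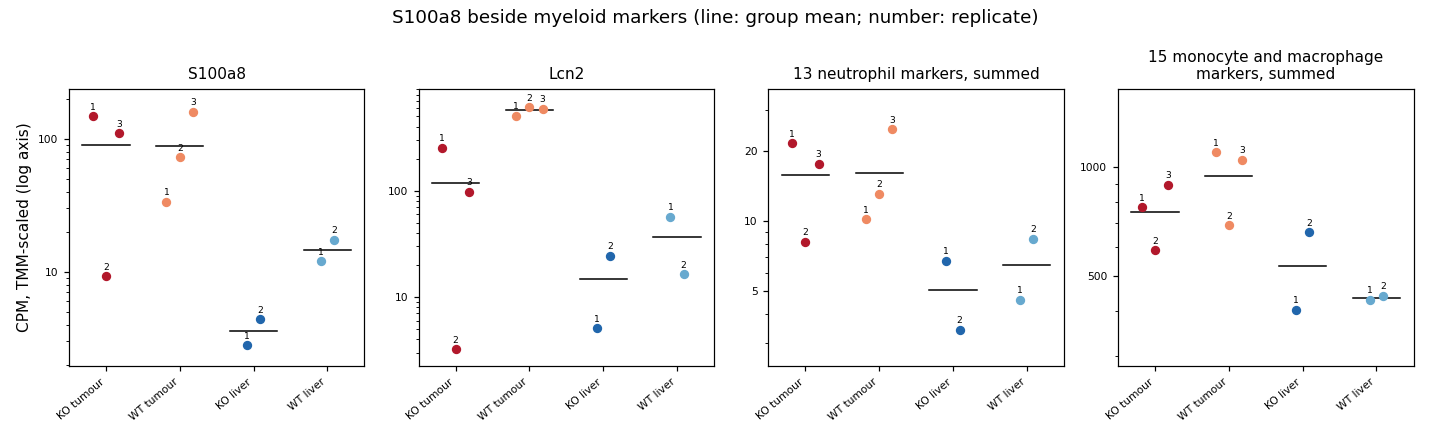
CPM (TMM-scaled, log axis) of S100a8, of Lcn2, of 13 neutrophil markers summed and of 15 monocyte and macrophage markers summed, per library and group, with replicate numbers and group means as lines. In KO tumours, replicate 2 has the lowest value in each panel.

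Some marker lists of other cells moved with the members and others did not. Their calls are read beside the shares of all tested genes called. These were 8.34% in WT tumours against WT liver and 4.52% in KO against WT tumours. The 15 monocyte and macrophage markers, all of them tested, summed to 589 to 895 CPM in KO tumours and 690 to 1100 CPM in WT tumours, against 403 and 660 CPM in KO liver and 430 and 441 CPM in WT liver, and 3 (Lyz2, Cd5l and Gpnmb) rose in WT tumours over WT liver. The Lyz2 call was lost without WT tumour replicate 1 or 3 or either WT liver (adjusted p = 0.057 to 0.084). The 12 cholangiocyte markers summed to 63 to 294 CPM in KO tumours and 288 to 523 CPM in WT tumours, against 73.1 and 87.7 CPM in KO liver and 129 and 98.4 CPM in WT liver. Of these, Spp1 and Tspan8 were called higher in WT tumours, while Krt7 and Krt19 had at most 22 counts in a library. Spp1 did not pass without WT tumour replicate 1 (adjusted p = 0.09) or WT liver replicate 2 (0.13), nor Tspan8 without WT liver replicate 1 (0.05) or 2 (0.056). The 12 stellate cell and fibroblast markers overlapped between groups and summed to 300 to 523 CPM in KO tumours and 281 to 666 CPM in WT tumours, against 319 and 390 CPM in KO liver and 409 and 446 CPM in WT liver. Of these only Dcn was called in WT tumours against WT liver, and it fell (-1.13, adjusted p = 0.02), which did not pass without WT tumour replicate 2 or 3 or WT liver replicate 2 (adjusted p = 0.075 to 0.11) or with library totals as the only scaling (0.12). Between KO and WT tumours, where Anxa5 and S100a11 were called lower, the macrophage gene Gpnmb (log2 fold change -4.39, adjusted p = 0.0028), the duct gene Sox9 (-1.12, adjusted p = 0.0099) and the stellate cell genes Reln (-0.95, adjusted p = 0.023) and Acta2 (-2.98, adjusted p = 0.041) were lower too. The stellate list was mixed, 5 of its 12 genes being higher in KO tumours, such as Dcn with 266 CPM in KO and 139 CPM in WT tumours (adjusted p = 0.052). Sox9 did not pass without KO tumour replicate 3 (adjusted p = 0.057). It was lower in KO liver too, with 52.9 ± 2.7 CPM against 90.3 ± 16 CPM in WT liver (n = 2 each), a difference that was not called. Reln and Acta2 did not pass in 4 leave-out fits each (adjusted p = 0.051 to 0.11 and 0.062 to 0.28). The 6 mesothelial markers summed to 5.01, 1.12 and 14.8 CPM in KO tumours and 23.4, 22.8 and 15.2 CPM in WT tumours, against 8.58 and 6.52 CPM in KO liver and 7.79 and 7.69 CPM in WT liver. The 10 endothelial markers lay at 303 to 407 CPM across all libraries. The 11 T and NK cell markers summed to 15.7, 5.31 and 38.9 CPM in KO tumours and 21.2, 6.04 and 25 CPM in WT tumours, against 9.61 and 10.2 CPM in KO liver and 6.79 and 2.21 CPM in WT liver. The 6 B and plasma cell markers summed to 38.3, 6 and 52.9 CPM in KO tumours and 12.8, 37.9 and 32.8 CPM in WT tumours, against 9.44 and 10.6 CPM in KO liver and 1.7 and 13 CPM in WT liver. KO tumour replicate 2 was the lowest KO tumour in the mesothelial, T and NK cell, and B and plasma cell sums, and none of these lists had a called gene. The part of these cells in the levels of the members was not tested.

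Of 8 other annexins 5 were tested. In WT tumours against WT liver 2 rose and none fell (8.34% of all genes called). Their median log2 fold change, over the 5 tested, was 1.24 (0.09 over all tested genes). Anxa7 had 94.8 to 108 CPM in WT tumours, against 56.3 and 63.3 CPM in WT liver. It was called as rising in DESeq2 and with library totals as the only scaling, but not in the main fit. Anxa4, an annexin of epithelial membranes, had 47.6, 34.4 and 38.8 CPM in KO tumours and 67.3, 112 and 70.7 CPM in WT tumours, against 11.6 and 34.7 CPM in KO liver and 20.8 and 30.8 CPM in WT liver (difference of WT tumours from WT liver 1.69 on the log2 scale, SE 0.41, adjusted p = 0.017). The Anxa4 call was lost without WT tumour replicate 2 (adjusted p = 0.071) or WT liver replicate 1 (adjusted p = 0.13).

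Anxa9 had 8, 3 and 26 counts in KO tumours and 188, 61 and 102 counts in WT tumours, against 0 and 7 counts in KO liver and 0 and 0 counts in WT liver. It was at least 36.7-fold higher in WT tumours when WT liver stands at 3 counts per library (adjusted p = 0.028), a floor that covers counting error of independent reads only. The call was lost without WT tumour replicate 1 or 3 or either WT liver (adjusted p = 0.064 to 0.11). In the main fit no annexin on this list passed in KO tumours against KO liver, in KO against WT tumours or in liver. Some alternative fits called Anxa4 lower in KO than in WT tumours. Among them were the fit of only those groups and that without the low-count filter.

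Among 10 other S100 genes 5 were tested, 3 having no count in any library. Only S100a1 was called in the main fit, and it moved against the members. In WT tumours against WT liver, 4 of the 5 tested had a positive log2 fold change. S100g, which was not called, had 5.16, 3.06 and 6.42 CPM in WT tumours, against 0 and 1.01 CPM in WT liver. It had 1, 0 and 0.793 CPM in KO tumours and 0 and 0 CPM in KO liver. S100a16 was called as rising between WT liver and WT tumours when library totals were the only scaling. S100a1, a calcium sensor known mainly from heart and skeletal muscle, had 133, 134 and 96.4 CPM in KO tumours and 37.3, 59.7 and 43.2 CPM in WT tumours, against 98.4 and 137 CPM in KO liver and 124 and 148 CPM in WT liver. WT tumours were below all other libraries, and the other 3 groups overlapped. S100a1 fell in WT tumours against WT liver (log2 fold change -1.54, SE 0.26, adjusted p = 0.0014) and was higher in KO than in WT tumours (1.38, SE 0.24, adjusted p = 0.0027). Its interaction of 1.59 passed (SE 0.37, adjusted p = 0.047) and was lost in 8 of the 10 fits that left out a library (adjusted p = 0.052 to 0.19).

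**Figure D5:**
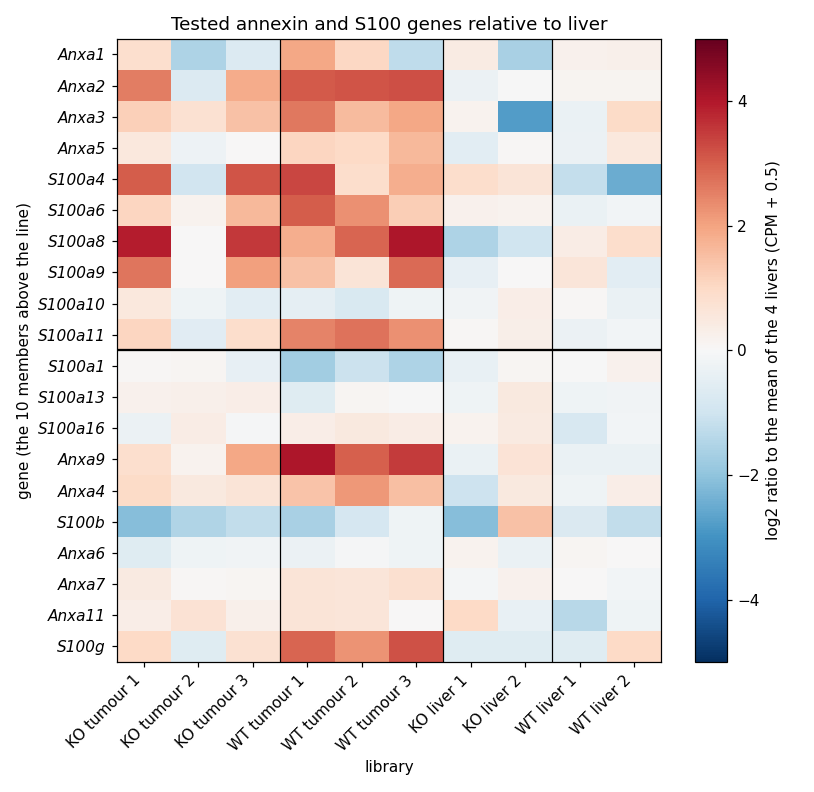
Log2 ratio of each library to the mean of the 4 livers, with 0.5 CPM added to both, for the 10 members (above the line) and the 10 other tested annexin and S100 genes (below it), libraries in columns. Most members are red in WT tumours and in KO tumour replicates 1 and 3, S100a10 is pale throughout, and S100a1 is blue in WT tumours.

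Of 11 receptors for annexin A1 and calprotectin, 8 were tested, and 1 rose in WT tumours against WT liver (8.34% of all genes called). This was the fatty acid translocase Cd36, with 45.3 ± 9.6 CPM (n = 3) against 19.4 ± 2.5 CPM (n = 2). Its log2 fold change was 1.23 (SE 0.33, adjusted p = 0.032). The Cd36 call was lost without WT tumour replicate 1 or 2 or either WT liver (adjusted p = 0.05 to 0.18). The receptors Fpr1, Fpr2 and Tlr4 passed edgeR's test in no comparison, and Ager, the receptor RAGE, had 0 to 33 counts per library. Tlr4 had the smallest p of this list in KO tumours against KO liver (adjusted p = 0.29 in edgeR, while DESeq2 called it). It had 31, 6 and 14 counts in KO tumours and 0 and 0 in KO liver. WT liver had 2.26 and 2.33 CPM of Tlr4, above the KO tumour mean of 1.27 CPM. DESeq2 also called Tlr4 lower in KO than in WT liver.

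The list of annexin A2/S100A10 partners and the plasminogen system held 13 genes, 11 of them tested. Of these, 2 rose and 1 fell in WT tumours against WT liver (8.34% of all genes called). Serpine2, an inhibitor of plasminogen activators and thrombin, had 44.2, 53.4 and 48.8 CPM in KO tumours and 8.54, 4.66 and 5.71 CPM in WT tumours, against 64.2 and 50.4 CPM in KO liver and 89.1 and 65.9 CPM in WT liver. WT tumours stood far below all other libraries, while KO tumour replicate 2 lay with the other KO tumours. Serpine2 was lower in WT tumours, against WT liver, by a log2 fold change of -3.61 (SE 0.3, adjusted p = 2.5e-06), higher in KO than in WT tumours (2.94, SE 0.28, adjusted p = 1.3e-05) and called in the interaction (3.38, SE 0.42, adjusted p = 0.00044).

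Serpinf2, which encodes the plasmin inhibitor alpha-2-antiplasmin, averaged 474 ± 43 CPM in KO tumours and 1040 ± 100 CPM in WT tumours (SD, n = 3 each), against 586 ± 39 CPM in KO liver and 555 ± 10 CPM in WT liver (n = 2 each). It was lower in KO than in WT tumours (log2 fold change -1.13, adjusted p = 0.0016) and higher in WT tumours than WT liver (0.9, adjusted p = 0.012, or 0.088 and 0.1 with a WT liver left out). Its interaction of -1.21 passed (adjusted p = 0.049) but not when any 1 library was left out (adjusted p = 0.053 to 0.18). Plg and Ahnak, the gene of a large scaffold that S100A10 and annexin A2 bind, passed in no comparison.

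Among 18 genes of membrane repair and the actin cortex, all tested, 5 rose and none fell in WT tumours against WT liver, and 4 were lower and none higher in KO than in WT tumours (8.34% and 4.52% of all genes called). With a library left out the counts were 2 to 7 and 2 to 4. In the first comparison 3 remained without any 1 of the WT tumours and 2 without WT liver replicate 1, and in the second 2 remained without any 1 of the 6 tumours; Cd63 and Tagln2 were called in each of these fits. The 2 with the smallest p are described. Cd63, a tetraspanin of late endosomes and exosomes, had 288, 40.4 and 306 CPM in KO tumours and 1010, 1210 and 1370 CPM in WT tumours, against 31.1 and 41.7 CPM in KO liver and 34 and 39.8 CPM in WT liver. It rose in WT tumours against WT liver (log2 fold change 5.02, SE 0.67, adjusted p = 0.00021) and was lower in KO than in WT tumours (-2.5, SE 0.5, adjusted p = 0.0072, or -2.01 and 0.00012 without KO tumour replicate 2). Tagln2, an actin-bundling protein, likewise rose in WT tumours against WT liver (3.2, SE 0.46, adjusted p = 0.00037) and was lower in KO than in WT tumours (-1.8, SE 0.37, adjusted p = 0.0088, or -1.41 and 0.0047 without it). No gene of this list passed in KO tumours against KO liver or in KO against WT liver. In KO tumours against KO liver, Cd63 had the smallest p (2.54, adjusted p = 0.13). Without KO tumour replicate 2, 3 genes of the list passed there, Cd63 (3.03, adjusted p = 4.2e-05) and Tagln2 (1.55, adjusted p = 0.0087) among them, and both passed in the interaction (-1.99, adjusted p = 0.0051, and -1.65, adjusted p = 0.035).

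The genes whose log2 CPM followed a member most closely over the 10 libraries were taken from 7207 candidates with a mean of at least 10 CPM. They are a description, since libraries of a group share treatment and genotype. For Anxa2 these were Gldn (Pearson r = 0.99) and P2rx7 (0.985), for S100a11 Il1rn (0.987) and Slc39a4 (0.986), and for Anxa5 Serinc3 (0.975) and Dynlt1b (0.946). For S100a8 they were Wfdc17 (0.963) and Rpl34-ps1 (0.958), for S100a9 Eif3g (0.952) and Arl6ip5 (0.932), and for S100a10 Myl6 (0.958) and Armc1 (0.912). The nearest genes were Jun for Anxa1 (0.848), Ocrl for Anxa3 (0.961), Gdpd1 for S100a4 (0.918) and H2-D1 for S100a6 (0.949). Among the members, Anxa2 and S100a11 were most alike (0.95), followed by S100a6 with S100a11 (0.9), while S100a10 had correlations between -0.57 and 0.12 with the other 9.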

How the data were processed

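The authors deposited raw read counts per gene for 10 libraries, made with a QuantSeq 3' forward kit from 50 ng of RNA per the labels' protocols. The submitters' processing notes name BWA, featureCounts and mm10, with versions, strand setting and multi-mapping rules not given in the sources used here. Of 39056 identifiers 38872 matched a symbol. Counts were fitted in R 4.3.3 with edgeR 4.0.16 (filterByExpr, TMM, a quasi-likelihood model of the 4 groups over all 10 libraries) and adjusted over all 15811 genes tested; called means an adjusted p under 0.05. DESeq2 1.42.0 was an alternative. The model was tested on simulated data. Replicates differed beyond sampling noise (chi-square per degree of freedom 39.8 to 94.9). The 95% intervals come from the model's estimate of spread between libraries. Floors treat reads as independent molecules and cover counting error only. Members, lists and tests were chosen with earlier results of these data known. The text names all members, at most 3 called genes of a pathway list or the one with the smallest p, and, of marker lists, only called genes or defining markers. One called gene of the plasminogen list is not reported here.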

Additional observations from a re-analysis of the deposited data

Results flagged for a closer look

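By edgeR's test, the tumour-to-liver difference depended on genotype for 3 genes of the family and partner lists and for none of the 10 members. Among all tested genes the share was 1.59%, and it held the hepatocyte markers Alb, Apoa1 and Cyp3a11 too. The Alb call was lost without KO tumour replicate 1 or 3 or WT tumour replicate 3 (adjusted p = 0.05 to 0.056). Cyp3a11 lost its call without KO tumour replicate 3 (adjusted p = 0.061). Alb, Apoa1 and Cyp3a11 each lost it without KO liver replicate 1, which left a single library in that group. DESeq2 called the member S100a11 (adjusted p = 0.043) and, of the actin list, Tagln2. The interaction (log2 scale, KO tumours minus KO liver, less WT tumours minus WT liver) was 1.59 for S100a1, 3.38 for Serpine2 and -1.21 for Serpinf2. The call on Serpine2 held in all 15 alternatives run (adjusted p = 4.7e-11 to 0.005). That on S100a1 was lost in 8 of the 10 fits that left out a library (adjusted p = 0.052 to 0.19). That on Serpinf2 was lost in all 10 (0.053 to 0.18), with RLE size factors (0.052) and with the replicate block (0.091). A test of outlying values within a group was not run, since groups held 2 or 3 libraries.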

How the results depend on the processing

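The 6 called values of members kept their direction in all 96 alternative values and their call in 85 of them; of the 11 lost calls, 10 are given with their genes above and that on Anxa5 with the replicate block below. Without the low-count filter 7 members were called in WT tumours against WT liver and 4 in KO tumours against KO liver. That fit called 4 members in KO against WT tumours, 2 in liver and 3 in the interaction. Over all genes it called 1890, 386, 1181, 111 and 635 (8.98%, 1.83%, 5.61%, 0.527% and 3.02%). DESeq2 called 1 member in KO tumours against KO liver and 1 in the interaction. Over all genes it called 2235, 377, 1118, 148 and 658 (14.1%, 2.38%, 7.07%, 0.936% and 4.16%). Leaving out a tumour gave 0 to 2 members in KO tumours against KO liver (2 without KO tumour replicate 2). The share of all genes called there was 0.0193% to 1.29%. In KO against WT tumours it gave 0 to 3 members, beside 2.93% to 4.29% of all genes. The 0 came without KO tumour replicate 3, WT tumour replicate 1 or WT tumour replicate 2. The cause of these shifts was not tested.

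Values that changed sign were all of members not called. With library totals as the only scaling, which moved the median of all genes to 0.356 in WT tumours against WT liver, S100a10 was 0.05 in KO tumours against KO liver and S100a8 was -0.04 in KO against WT tumours. With only the compared groups in the fit, S100a9 was 0.01 in KO against WT tumours. With a library left out, KO tumours against KO liver ranged over -0.9 to 1.81 for Anxa1 and -0.47 to 0.19 for S100a10. KO against WT tumours ranged over -0.25 to 1.19 for S100a4, -0.56 to 0.78 for S100a8 and -0.58 to 0.87 for S100a9. KO against WT liver ranged over -2.19 to 0.19 for Anxa1, -0.74 to 0.11 for Anxa5, -0.85 to 0.4 for S100a9 and -0.07 to 0.47 for S100a10. The interaction ranged over -1.78 to 0.93 for Anxa1, -0.71 to 4.94 for Anxa3, -0.41 to 1.23 for S100a9 and -0.12 to 0.54 for S100a10.

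Replicate numbers are shared across groups, but same-numbered libraries did not deviate together (13 pairs, correlations -0.01 to 0.02), so they were not taken as pairs. With the replicate number as a block 1 member was called in KO against WT tumours, S100a11 (4.31% of all genes called). There Anxa5 had -1.1 (adjusted p = 0.057), S100a4 -0.14 and S100a9 0.05. The block changed no other member's call. Among the calls printed for other single genes, it ended that on Anxa9 in WT tumours against WT liver (adjusted p = 0.066). In the interaction it ended those on Serpinf2 (adjusted p = 0.091) and Alb (0.053). Of 51 called values of list genes, 691 of 810 alternative values kept the call, 119 lost it and 0 reversed. The common coefficient of variation between replicates was 71.8%. Counts of 3 or fewer, as for S100a4 in a WT liver and Anxa3 in a KO liver, limit those folds.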
